A study of Mus musculus with 6 samples.

Results

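The genes described here are 9 genes of zinc storage, zinc sensing and zinc transport: the metallothioneins Mt1 and Mt2, the transcription factor Mtf1, the exporters Slc30a1, Slc30a5 and Slc30a10, and the importers Slc39a4, Slc39a5 and Slc39a14. They were measured in epithelial cells of the mouse colon on 6 Affymetrix arrays, with 19938 genes represented in all. The cells carried the epithelial surface protein EpCAM, lacked the leukocyte antigen CD45 and were isolated by cell sorting. They came from wild-type male BALB/c mice aged 6 weeks, all of which were starved for 36 h and then re-fed for 24 h. In 1 group of 3 samples the mice received antibiotics during re-feeding (antibiotics), and in the other group of 3 samples they received none (re-fed). The sources used here give neither the names and doses of the antibiotics nor the number of mice behind each sample. Samples of a group are called biological replicates in the labels. Every p-value below measures only the spread between these samples, with the variance of each gene moderated towards that of all genes tested. The 9 genes were picked by name with results of this comparison already known, so their own differences between the groups are given as a description and carry no test. Each gene was read from its brightest own probe set, and all 9 genes lay above the floor of 5.81 on the log2 scale that 12071 of the 19938 genes passed.

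Metallothioneins are small, cysteine-rich proteins of the cytosol that bind zinc, copper and cadmium and give the metal up again when a cell needs it. Cellular zinc is further set by 2 families of membrane transporters: Slc30 proteins move zinc out of the cytosol, to the outside or into vesicles, and Slc39 proteins move it in. When free zinc is plentiful, the zinc-finger factor encoded by Mtf1 binds short DNA elements called metal response elements and turns on Mt1, Mt2 and Slc30a1. In rodents the metallothionein genes are also known to respond to glucocorticoids, fasting, cytokines and oxidative stress.

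The label of the sorted cells was checked against its defining markers. Epcam lay between 12.08 and 12.20 in antibiotics and between 12.08 and 12.29 in re-fed on the log2 scale, near the top of all genes. Ptprc, which encodes CD45, lay between 5.30 and 5.54 in antibiotics and between 5.31 and 5.50 in re-fed, below the floor on every array. Precision here is limited by the small number of arrays. Judged by shared exact values alone, 4 arrays may have been normalized together by the authors (antibiotics replicates 1 and 2, re-fed replicates 2 and 3). Each pair of them shared 372 to 435 exact values, against 42 to 198 for the pairs with antibiotics replicate 3 or re-fed replicate 1. These 4 arrays are called the common run, and differences or list medians within them are given beside those over all 6 for the 9 genes, the other zinc genes described array by array, and most lists. No label names such a run, and why these arrays share more values was not tested. Their medians as deposited still differed, between 6.06 and 6.17. Antibiotics replicate 3 had only 10829 distinct values, which by itself lowers the number it can share. In RNA from a bulk of sorted cells, a change in the share of cells of a type and a change in the RNA per cell cannot be told apart.

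The promoters of the 3 genes known as targets of the Mtf1 protein are shown first, because their metal response elements link the metallothioneins to the exporter Slc30a1. Sequences are from RefSeq on the mouse build GRCm38.p6, on the strand of the gene, with the 250 bases before the annotated start. Capitals mark the core of a metal response element, TGCACNC or TGCGCNC, read on either strand. The windows lie at chr8:94178839-94179088 for Mt1, chr8:94172368-94172617 for Mt2 and chr1:191906531-191906780 for Slc30a1, all on the plus strand.
Mt1: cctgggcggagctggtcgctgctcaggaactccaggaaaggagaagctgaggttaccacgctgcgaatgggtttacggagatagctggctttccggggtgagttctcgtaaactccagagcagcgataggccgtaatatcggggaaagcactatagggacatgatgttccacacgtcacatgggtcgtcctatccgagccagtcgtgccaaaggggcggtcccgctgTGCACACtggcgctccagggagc
Mt2: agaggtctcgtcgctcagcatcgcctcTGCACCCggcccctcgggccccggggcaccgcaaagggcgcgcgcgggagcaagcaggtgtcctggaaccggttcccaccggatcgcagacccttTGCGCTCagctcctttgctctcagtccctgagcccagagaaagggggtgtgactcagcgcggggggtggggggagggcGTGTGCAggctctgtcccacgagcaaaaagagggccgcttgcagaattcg
Slc30a1: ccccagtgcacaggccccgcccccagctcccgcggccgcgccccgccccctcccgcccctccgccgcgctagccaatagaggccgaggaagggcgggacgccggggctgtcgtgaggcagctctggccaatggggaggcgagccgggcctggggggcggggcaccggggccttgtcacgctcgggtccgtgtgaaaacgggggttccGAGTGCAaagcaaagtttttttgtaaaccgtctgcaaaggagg
Mt1 after the start, bases 3 to 27: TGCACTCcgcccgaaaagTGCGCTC

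In the window of 300 bases that also takes in the first 50 bases after the start, Mt1 had 3 cores, at 23 bases before the start and at bases 3 and 21 after it. Mt2 had 4 cores, at 223, 128 and 50 bases before the start and at base 5 after it. Slc30a1 had 2 cores, at 43 bases before the start and at base 31 after it. Of the 32851 mouse promoter windows of the same length, 25.7% held at least 1 core, 7.11% at least 2, 1.97% at least 3 and 0.517% at least 4. Entries were found for 7 of the 9 genes, and Slc39a4 and Slc39a14 had none. Slc30a10 had 3 matches, 2 of which overlap as 1 site read on both strands. Slc30a5 had 1 core, Slc39a5 had 1 core at its second annotated start, and Mtf1 had none in its window. The antioxidant response element core TGACNNNGC, searched on both strands, was found once each at Mt2, Slc30a1 and Slc30a5, in 2 places at the first annotated start of Slc39a5, and in 12.4% of all windows at least once. The STAT site TTCNNNGAA was found at none of the 7 genes and in 8.30% of all windows, and the E-box CACGTG once, at Slc30a5, and in 7.15% of all windows. These matches describe letters in a window and say nothing of binding in these cells. All positions and counts depend on the annotated start, which was not checked against other start sites. Bases outside the window were not searched.

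Mt1 and Mt2 lay higher in the colonic epithelium of mice given antibiotics, by 2.61-fold and 1.96-fold, and both varied widely between arrays of the same group. Slc39a4, Mtf1, Slc30a1 and Slc30a5 lay lower by smaller amounts, Slc39a14 lay higher, and Slc30a10 and Slc39a5 differed by less than 0.01 on the log2 scale. None of the 9 genes passed an adjusted p of 0.05 in the fit across all genes with limma, where 7 of 12071 genes passed (0.058%). At an unadjusted p under 0.05 there were 4 of the 9 (Mt1, Slc39a4, Mtf1 and Slc30a1), against 12.6% of all genes. The 3 arrays of each group did not overlap for 1 gene that lay higher, Mt1, where 8.88% of all genes did so. They did not overlap for 4 genes that lay lower, Mtf1, Slc30a1, Slc30a5 and Slc39a4, where 10.7% of all genes did so. Since the genes were picked with this comparison known, nothing is read from these counts. The median difference over all 12071 genes was 0.0033, with a median standard error of 0.12.

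**Figure D1:**
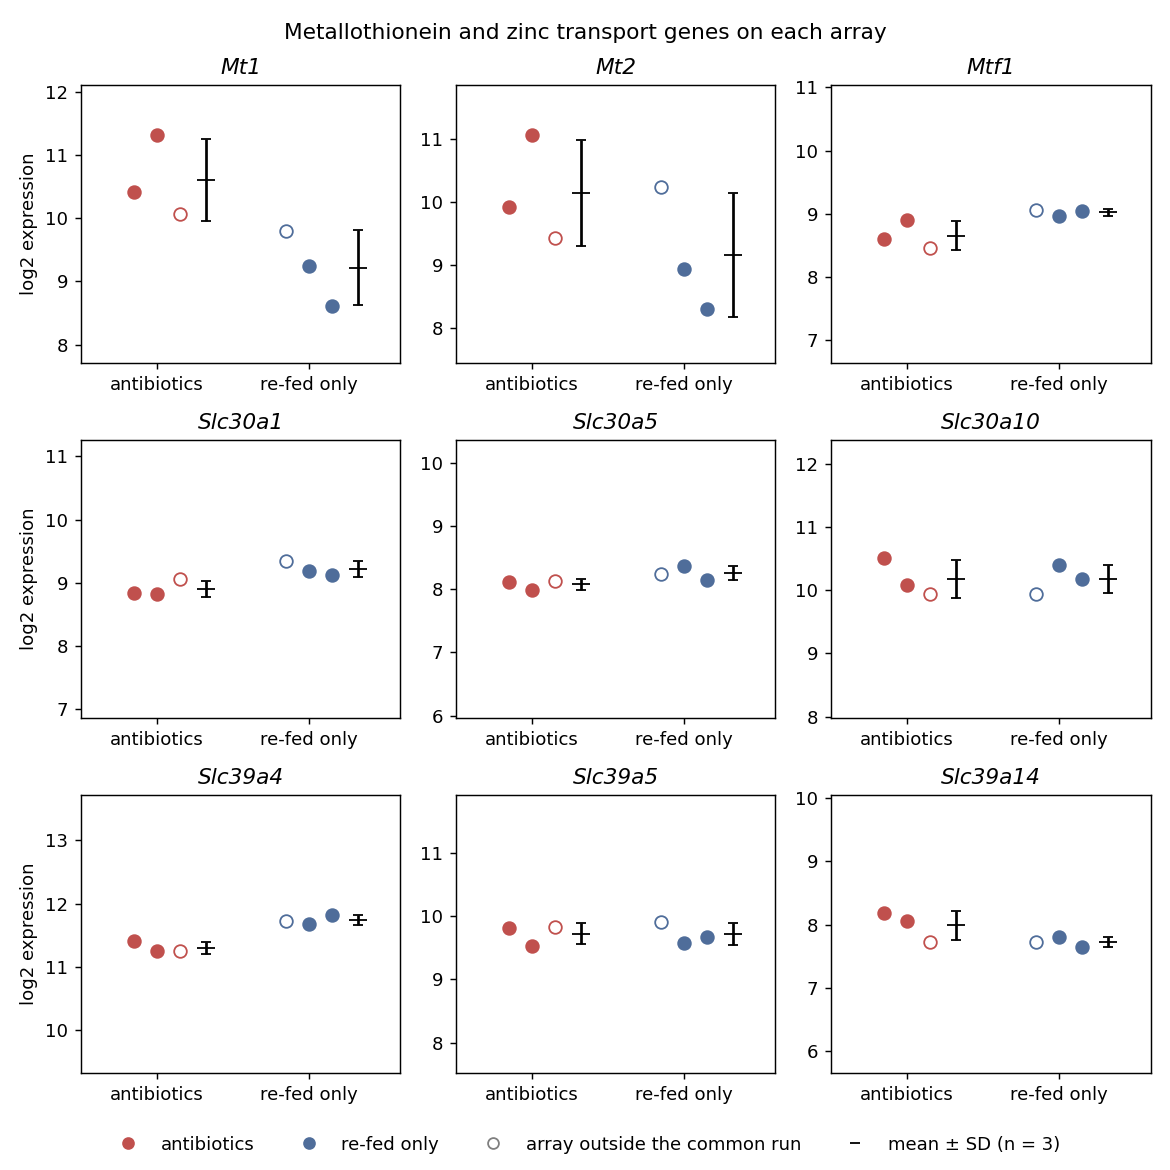
Log2 expression of the 9 genes on each array, antibiotics left and re-fed only right, each panel spanning the same range of log2 units, with open circles for the arrays outside the common run and bars for mean ± SD (n = 3). Mt1 and Mt2 spread over more than 1 log2 unit within each group, while the 3 arrays of Slc39a4 lie close together in each group.

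Mt1, the main inducible zinc store of most mouse tissues together with Mt2, had log2 levels of 10.41, 11.32 and 10.06 in antibiotics replicates 1 to 3, against 9.79, 9.24 and 8.62 in re-fed replicates 1 to 3. Every array of the antibiotics group lay above every array of the re-fed group, but the gap between antibiotics replicate 3 and re-fed replicate 1 was small beside the spread within each group. The means were 10.60 ± 0.65 in antibiotics and 9.22 ± 0.59 in re-fed (SD, n = 3 each), a difference of 1.38 with a standard error of 0.34. This was the largest positive difference among the 12071 genes over all 6 arrays. Within the common run the difference was 1.94 with a standard error of 0.30, or 3.83-fold, again first of all genes. This subset leaves out antibiotics replicate 3 and re-fed replicate 1, the arrays of Mt1 closest to the other group. In the common run Mt1 was the only 1 of the 9 genes past an adjusted p of 0.05 with limma, where 54 genes passed (0.447%). Nothing is read from this, since the gene was picked with the comparison known and the subset leaves out its closest arrays.

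Mt2 had log2 levels of 9.92, 11.06 and 9.43 in antibiotics replicates 1 to 3, against 10.24, 8.94 and 8.31 in re-fed replicates 1 to 3. The groups overlapped: re-fed replicate 1 lay above antibiotics replicates 1 and 3. The means were 10.14 ± 0.84 in antibiotics and 9.16 ± 0.98 in re-fed (SD, n = 3 each), a difference of 0.97 with a standard error of 0.50. It ranked 5 among all genes by positive difference. Within the common run, which leaves out re-fed replicate 1 and antibiotics replicate 3, the difference was 1.86 with a standard error of 0.35, or 3.64-fold, and the groups did not overlap. In the common run the groups did not overlap for 3 of the 9 genes that lay higher (Mt1, Mt2 and Slc39a14) and 4 that lay lower (Mtf1, Slc30a1, Slc30a5 and Slc39a4). With 2 arrays against 2, 26.7% of all genes were separate and higher in antibiotics and 23.9% separate and lower.

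Single arrays moved both genes. Without antibiotics replicate 2, which had the highest level of both genes, the difference was 1.02 for Mt1 and 0.51 for Mt2, and among all genes Mt1 ranked 4 and Mt2 ranked 167. Without re-fed replicate 3, which had the lowest level of both genes, the difference of Mt2 was 0.55 and its rank was 68, and Mt1 again ranked 4. Without re-fed replicate 1 the difference of Mt2 was 1.51.

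The spread of the metallothioneins within a group was itself large for these arrays. The SD within groups was 0.62 for Mt1 and 0.91 for Mt2, against a median of 0.15 over all genes tested. By this spread Mt2 ranked 8 and Mt1 ranked 42 of 12071 genes. The other 7 genes had SDs within groups between 0.087 and 0.26, of which 4 lay above the median of all genes (Mtf1, Slc30a10, Slc39a5 and Slc39a14).

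**Figure D2:**
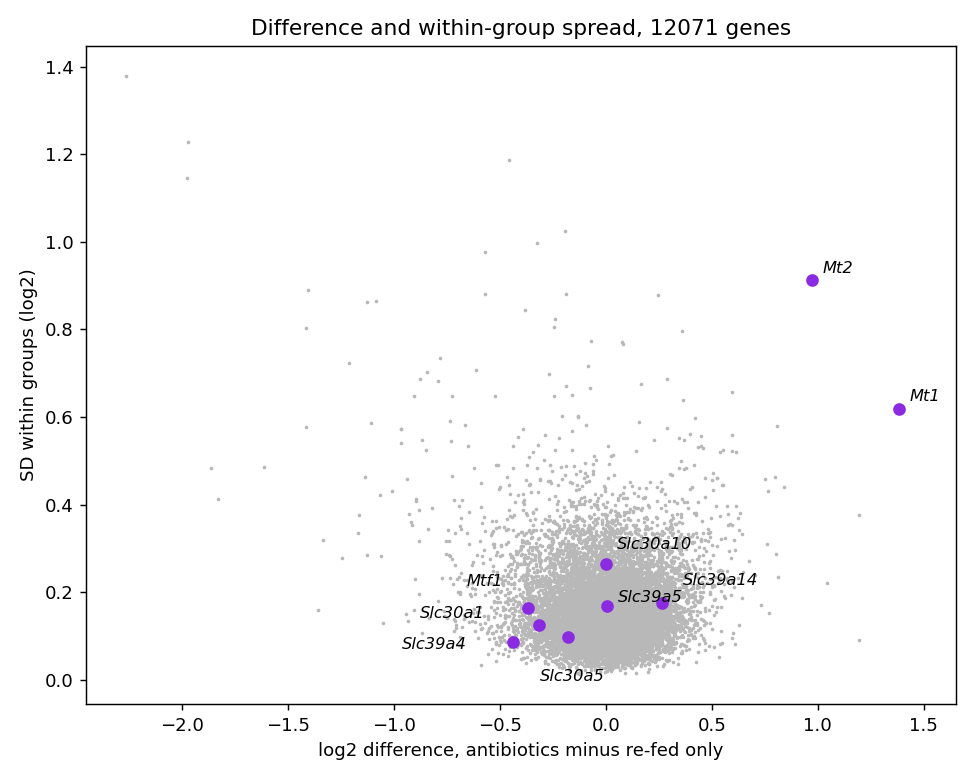
Each grey point is 1 of 12071 genes, with the log2 difference of antibiotics minus re-fed only on the x axis and the SD within groups, in log2 units, on the y axis, and the 9 genes marked. Mt1 lies farthest right of all points, Mt2 lies high above the cloud, and the other 7 genes lie inside or at the edge of it.

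Mt1 and Mt2 followed each other across the arrays. Pearson's r between them was 0.92 over the 6 arrays and 0.98 over the deviations from the group means, given as a description over arrays that share their normalization. The genes lie side by side: on mouse chromosome 8 the coding genes run Mt4, Mt3, Mt2 and Mt1 with no other coding gene between them. Mt3, known mainly from the brain, had log2 levels of 7.49, 7.63 and 7.52 in antibiotics, against 7.27, 7.20 and 7.52 in re-fed. Re-fed replicate 3 lay at the level of the antibiotics group, and the groups overlapped, with a difference of 0.21 (SE 0.12), or 0.19 in the common run. Mt4, known from stratified epithelia, had group means of 5.61 in antibiotics and 5.49 in re-fed, below the floor, and was not tested.

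The mean of Mt1 and Mt2 was then correlated with each of the other 12069 genes. Over the 6 arrays the 5 genes with the highest r were Fnbp4 (0.99), Fam53b (0.98), Yod1 (0.97), Man2c1 (0.97) and Camsap2 (0.97), and 82 genes (0.679%) had an r over 0.9. Their differences between the groups were small beside that of Mt1: 0.23 for Fnbp4, 0.35 for Fam53b, 0.16 for Yod1, 0.16 for Man2c1 and 0.21 for Camsap2. Over deviations from the group means the 5 highest were Glp1r, Nfkbid, Urgcp, Arhgef26 and Bnip3l, each with an r between 0.995 and 0.999. Of these, Glp1r encodes the receptor of glucagon-like peptide and Bnip3l a protein of mitochondrial clearance. The differences of these 5 genes between the groups ran between -0.27 for Glp1r and 0.057 for Bnip3l. These names only describe the profile over 6 arrays and say nothing of shared function or control.

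**Figure D3:**
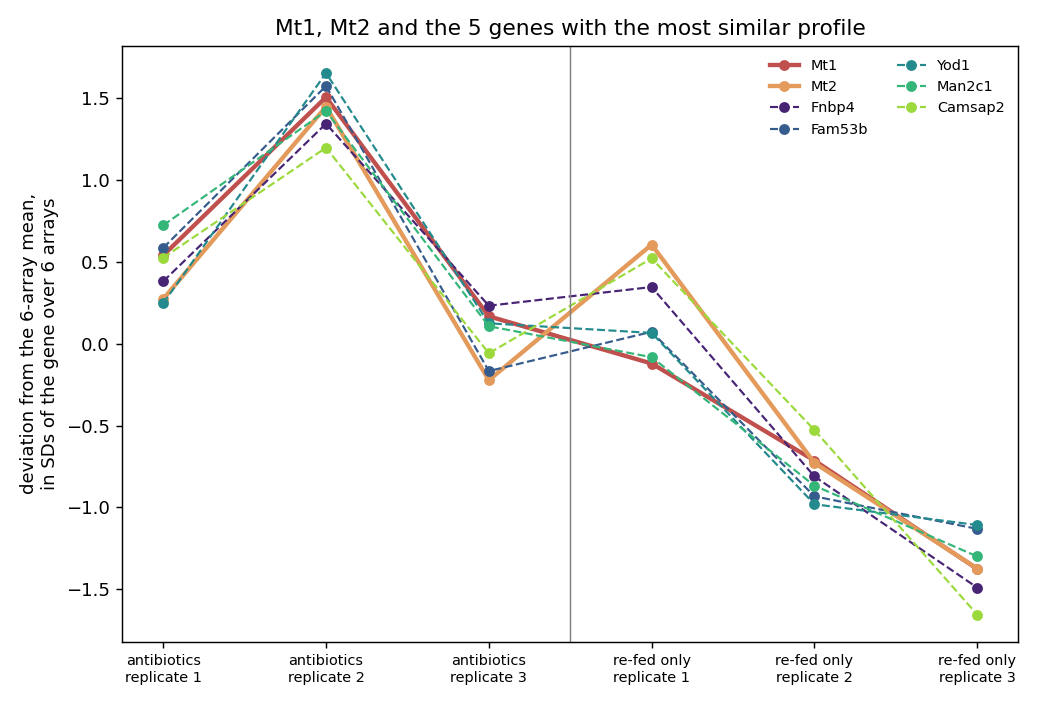
Deviation of each gene from its own mean over 6 arrays, in SDs of that gene, for Mt1, Mt2 and the 5 genes with the highest correlation with their mean over 6 arrays, with the antibiotics arrays left of the re-fed only arrays. All 7 profiles peak at antibiotics replicate 2 and are low at re-fed replicates 2 and 3, and Mt2 is higher at re-fed replicate 1 than at antibiotics replicates 1 and 3.

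Among the zinc-responsive partners of the metallothioneins, the sensor and the exporter lay on the other side of zero. Mtf1, the zinc-sensing activator itself, had log2 levels of 8.61, 8.90 and 8.46 in antibiotics, against 9.06, 8.96 and 9.05 in re-fed. All 3 antibiotics arrays lay below all 3 re-fed arrays with a narrow gap, and the difference was -0.37 (SE 0.13), or -0.25 in the common run. In the antibiotics group Mtf1 had the same order of arrays as Mt1 and Mt2, highest in replicate 2 and lowest in replicate 3. In the re-fed group it barely varied, and replicate 3, lowest for Mt1 and Mt2, was not its lowest. Its r with the mean of Mt1 and Mt2 was -0.25 over the 6 arrays and 0.70 over deviations from the group means. Slc30a1, the plasma membrane exporter that the Mtf1 protein is known to turn on, had log2 levels of 8.84, 8.82 and 9.06 in antibiotics, against 9.35, 9.18 and 9.12 in re-fed. Its groups did not overlap, and the difference was -0.31 (SE 0.11), or -0.32 in the common run. With r of -0.54 over the 6 arrays, Slc30a1 did not follow Mt1 and Mt2. The promoter windows of Mt1, Mt2 and Slc30a1 each hold at least 2 of the cores counted above, and that of Mtf1 holds none. Any bearing of the cores on these levels was not tested.

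Slc39a4, the apical importer through which the intestine takes up dietary zinc, had the tightest values of the 9 genes. Its log2 levels were 11.42, 11.25 and 11.25 in antibiotics, against 11.72, 11.67 and 11.83 in re-fed. The groups did not overlap, and the gap between them was wider than the range within either group. The means were 11.31 ± 0.096 in antibiotics and 11.74 ± 0.078 in re-fed (SD, n = 3 each), a difference of -0.44 (SE 0.10), with 1.35-fold lower expression in antibiotics. The common run gave -0.42. By size this difference ranked 314 among the negative ones. Its correlation with the mean of Mt1 and Mt2 over the 6 arrays was -0.75, the lowest of the 9 genes, and -0.41 over deviations from the group means.

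Slc39a5, an importer of the basolateral side, had log2 levels of 9.81, 9.53 and 9.83 in antibiotics, against 9.91, 9.58 and 9.67 in re-fed. The groups overlapped throughout, with a difference of 0.0052 (SE 0.13), or 0.047 in the common run. Slc39a14, which carries zinc, iron and manganese into cells, had log2 levels of 8.18, 8.05 and 7.73 in antibiotics, against 7.72, 7.81 and 7.64 in re-fed. Antibiotics replicates 1 and 2 lay above every re-fed array, but antibiotics replicate 3 lay below re-fed replicate 2. The difference was 0.26 (SE 0.13) over 6 arrays and 0.39 in the common run. Among the 7 transport and sensor genes it had the highest correlation with the mean of Mt1 and Mt2 over the 6 arrays (r = 0.69).

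Slc30a5, which loads zinc into the early secretory pathway, had log2 levels of 8.11, 7.98 and 8.13 in antibiotics, against 8.24, 8.37 and 8.15 in re-fed. The groups did not overlap, but the closest arrays, antibiotics replicate 3 and re-fed replicate 3, were nearly level. The difference was -0.18 (SE 0.11), or -0.21 in the common run. Slc30a10, known chiefly as a manganese exporter despite its family, had log2 levels of 10.51, 10.08 and 9.94 in antibiotics, against 9.94, 10.40 and 10.18 in re-fed. The groups overlapped, with antibiotics replicate 1 above every re-fed array and antibiotics replicate 3 level with the lowest one, re-fed replicate 1. The difference was 0.0035 (SE 0.17), or 0.0058 in the common run.

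The rest of the zinc system showed no gene past the threshold. Of 27 further zinc genes on lists of the Slc30 and Slc39 families and of zinc storage, sensing and channels, 20 lay above the floor. Of these, 13 had a difference above 0 and 7 below 0, the median was 0.075 (0.058 in the common run) and the range ran between -0.16 and 0.30. With limma, 0 passed an adjusted p of 0.05 and 2 (10%) an unadjusted p under 0.05, both higher in antibiotics, near the share of all genes given above. Slc39a13, an importer of the Golgi and vesicles, had 7.20, 7.14 and 7.52 in antibiotics, against 6.96, 6.99 and 6.996 in re-fed on the log2 scale (difference 0.30, SE 0.12, adjusted p = 0.352). In the common run its difference was 0.18. Slc39a7, which releases zinc out of the endoplasmic reticulum, had 9.18, 8.93 and 8.89 in antibiotics, against 8.78, 8.80 and 8.55 in re-fed (difference 0.29, SE 0.12, adjusted p = 0.371). In the common run its difference was 0.38. In Slc39a13 and Slc39a7 alike, every antibiotics array lay above every re-fed array. These were the only 2 of the 20 genes without overlap (10%). Of all genes, 8.88% were separate and higher and 10.7% separate and lower. Trpm7, a cation channel that passes zinc and magnesium, differed by 0.28 with overlapping groups. Among the exporters Slc30a7 differed by 0.14 and Slc30a6, the partner of Slc30a5, by -0.16, both with overlapping groups. The 7 genes below the floor by their mean over 6 arrays were Slc30a8, Slc39a6, Slc39a10, Slc39a12, Mt4, S100a8 and S100a9. Of these, Slc39a10 averaged 5.54 in antibiotics and 5.95 in re-fed, so its re-fed mean lay above the floor of 5.81. It is left out of the counts and the range given above.

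**Figure D4:**
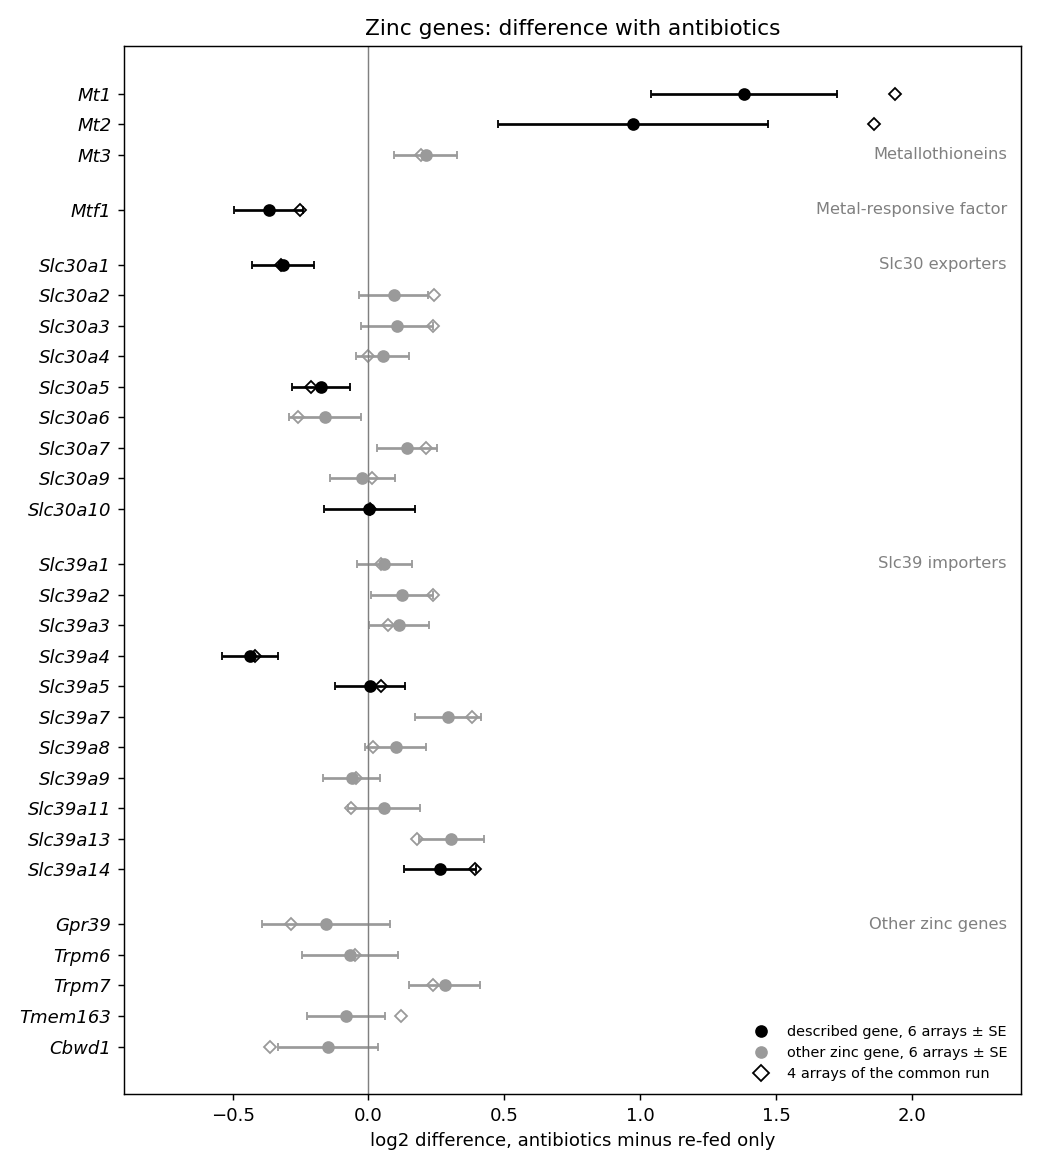
Log2 difference of antibiotics minus re-fed only for the 9 genes (black) and the 20 other zinc genes above the floor (grey), with bars for the standard error over 6 arrays and diamonds for the 4 arrays of the common run. Mt1 and Mt2 lie at 1.38 and 0.97 and move farther right in the common run, and the other 27 genes lie between -0.44 and 0.30.

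Genes of other metals and of zinc-using enzymes were described in the same way. Of 11 copper genes above the floor, 3 differed above 0 and 8 below 0, with a median of -0.13 over 6 arrays but -0.024 in the common run, and 0 past the adjusted threshold. At an unadjusted p under 0.05 there was 1 (9.09%, against 12.6% of all genes), Slc31a2 (-0.27, SE 0.10), a copper transporter of endosomes. The copper importer Slc31a1 differed by -0.20 with groups that did not overlap. Of 22 zinc-dependent enzymes, 8 differed above 0 and 14 below 0, and the list had a median of -0.087 (common run -0.077) and 0 past the adjusted threshold. There were 5 at an unadjusted p under 0.05 (22.7%, against 12.6% of all genes), all lower, where 884 of 12071 genes were lower at that level. The groups did not overlap for 6 of the 22, all lower, where 10.7% of all genes were separate and lower. Among them the carbonic anhydrases Car12 and Car2 differed by -0.63 and -0.37 and the cytidine deaminase Cda by -0.35, each with groups that did not overlap.

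Lists of genes for other known inducers of metallothioneins were described as well, and the part of these inducers in the results above was not tested. Of 17 glucocorticoid-responsive genes, 9 differed above 0 and 8 below 0 (median 0.042, and 0.068 in the common run), with 2 higher and 2 lower at an unadjusted p under 0.05 (23.5% of the list, against 12.6% of all genes). Differences on this list ran between -1.08 and 0.60. Zbtb16, a transcription factor induced by glucocorticoids, had log2 levels of 7.57, 8.08 and 7.24 in antibiotics, against 7.20, 6.98 and 6.90 in re-fed. Ddit4, an inhibitor of growth signalling, differed by 0.50 (SE 0.13), and Errfi1 by -0.31. Of 12 genes of the response to interleukin-6 and STAT3, 6 differed in each direction (median 0.00069, and 0.0015 in the common run). There were 2 at an unadjusted p under 0.05 (16.7%, against the same 12.6%), both lower: Bcl3 (-0.35, SE 0.10) and the antimicrobial lectin gene Reg3b (-1.41, SE 0.44). The groups of Reg3b overlapped, and its mean was 5.43 in antibiotics, below the floor of 5.81, against 6.84 in re-fed. Reg3b thus passed the floor only through its level in re-fed. Of 15 oxidative and metal stress genes, 8 differed above 0 and 7 below 0, with a median of 0.0059 that turned to -0.077 in the common run. At an unadjusted p under 0.05 there were 4 higher and 1 lower (33.3%, against the same 12.6%). The glutathione genes Gpx2, Gsr and Gclm differed by 0.80, 0.42 and 0.27, with overlapping groups for Gpx2. The groups did not overlap for 3 of the 15, all higher, where 8.88% of all genes were separate and higher. No gene of these 3 lists passed an adjusted p of 0.05 with limma.

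Markers of cell types within the epithelium differed between the groups as well, and their part in the results above was not tested. Of 18 crypt and proliferation genes, 16 differed above 0 (median 0.32, and 0.15 in the common run), and the mean of the list lay between 7.45 and 7.93 in antibiotics and between 7.30 and 7.48 in re-fed. Of 23 absorptive colonocyte genes, 14 differed below 0 (median -0.079, and -0.033 in the common run), with list means between 11.31 and 11.61 in antibiotics and between 11.52 and 11.75 in re-fed. Of 14 goblet cell genes, 12 differed below 0 (median -0.22, and -0.30 in the common run), with list means between 10.13 and 10.50 in antibiotics and between 10.52 and 10.80 in re-fed. Among all lists described here, Retnlb, a secreted goblet cell protein, was the only gene past an adjusted p of 0.05 with limma (-1.83, SE 0.24, adjusted p = 0.0441). Of 12 pan-epithelial genes 0 passed, and their list means lay between 11.95 and 12.14 in antibiotics and between 12.14 and 12.16 in re-fed. Krt18 of that list differed by -0.59 (SE 0.094, adjusted p = 0.0692 with limma). The groups did not overlap for 3 of the 12, all lower, where 10.7% of all genes were separate and lower. Of 9 tuft and enteroendocrine genes, 6 differed below 0 (median -0.13, and -0.34 in the common run). At an unadjusted p under 0.05 with limma there were 8 crypt genes (44.4%), all higher, and 4 goblet cell genes (28.6%), all lower. Of the absorptive list there were 9 (39.1%), 8 of them lower. The share was 11.1% for the tuft and enteroendocrine list and 8.33% for the pan-epithelial list, against 12.6% of all genes. Over all genes tested, 50.7% differed above 0.

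Markers of T cells, myeloid cells and stroma were mostly below the floor. Of 11 T cell and intraepithelial lymphocyte markers on the arrays 10 were below it, with list means between 4.98 and 5.02 in antibiotics and between 5.03 and 5.09 in re-fed. Of 11 myeloid markers 9 were below it, with list means between 5.41 and 5.62 in antibiotics and between 5.35 and 5.57 in re-fed. Of 12 stroma and endothelium markers 7 were below it, with list means between 5.68 and 5.85 in antibiotics and between 5.71 and 5.79 in re-fed. Of 8 B and plasma cell markers 4 were below it, and the list means, between 6.40 and 6.46 in antibiotics and between 6.32 and 6.37 in re-fed, lay above it. Of these, Sdc1, also a surface proteoglycan of epithelia, averaged 9.95 in antibiotics and 10.25 in re-fed. Xbp1, also a factor of secretory epithelial cells, averaged 10.56 in antibiotics and 10.45 in re-fed. Of 13 Paneth and small-intestinal enterocyte markers 7 were below the floor, with list means between 6.19 and 6.53 in antibiotics and between 6.40 and 6.59 in re-fed. Rbp2 and Fabp2 of that list were well above it. Rbp2 averaged 10.73 in antibiotics and 10.42 in re-fed, and Fabp2 averaged 10.22 in antibiotics and 11.01 in re-fed. The lipid-binding protein genes Fabp1 and Fabp6 were among those below it.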

How the data were processed

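Per the labels' protocols, biotinylated cRNA was made from the RNA of sorted colonic epithelial cells and put on Affymetrix arrays. The deposited table holds log2 values of 35557 probe sets, made by the authors with RMA (version not given in the sources used here), per the submitters' processing notes. RMA subtracts a background, quantile-normalizes and summarises probes, which compresses changes of dim probe sets. Groups came from the sample labels.

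Since array medians of the deposited log2 values ran between 5.63 and 6.17, quantile normalization over the 23410 probe sets with a gene was applied. The number of distinct values was 10829 on antibiotics replicate 3 and 34568 or more on each of the others. Of the probe sets, 21789 named 1 gene, 1621 several and 12147 were unnamed here. For a gene with several probe sets of its own, the brightest on average was kept. A floor at the 40th percentile of mean levels (5.81) removed dim genes and left 12071. The test was limma's moderated test (limma 3.58.1, R 4.3.3), two-sided and adjusted by Benjamini-Hochberg over the 12071 genes at a threshold of 0.05, and the procedure was tested on simulated data. Alternatives covered scaling, floor, probe set choice, the common run, a replicate block, array weights, the variance prior and leaving out each array.

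The 9 genes and all lists were chosen with earlier results of these data known. Besides the 9, the text names up to 3 genes per list by smallest unadjusted p, any gene past the threshold, and the 5 genes most correlated with the mean of Mt1 and Mt2 by each measure. Slc30a1 as the exporter with a printed promoter was singled out for its known regulation.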

Additional observations from a re-analysis of the deposited data

How the results depend on the processing

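Over 6 arrays, 7 genes passed the threshold (1 higher in antibiotics, 6 lower). The count was 45 with the deposited scaling, 62 with arrays centred on their medians, 2 with no floor, 43 with the stricter floor, 54 in the common run, 43 with a trended and robust prior and 1169 with array weights. It ran between 0 (without antibiotics replicate 1, where 1040 genes had an unadjusted p under 0.05) and 11 (without re-fed replicate 3) when each array was left out. With the replicate block it was 7, the same count as without it. Same-numbered arrays deviated with correlations of 0.021, -0.034 and -0.22, so the numbers were not taken as pairs. At an unadjusted p under 0.05 there were 640 higher and 884 lower, against 20 and 445 with the deposited scaling and 231 and 1741 with centred arrays. The cause of these shifts was not tested.

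Mt1 passed the adjusted threshold with the deposited scaling and in the common run. With the deposited scaling the standard error was the same for all 9 genes, 0.27, against 0.34 for Mt1 in the fit given above. The wide spread of Mt1 itself therefore did not enter that result. With array weights Mt1, Mtf1, Slc30a1, Slc39a4 and Slc39a14 passed, where 9.68% of all genes did, and of the other zinc genes 1, Slc39a7. Over the 16 alternatives, Mt1, Mt2, Mtf1, Slc30a1, Slc30a5, Slc39a4 and Slc39a14 kept their direction, while Slc30a10 turned in 5 and Slc39a5 in 7. Mt1 ran between 1.02 and 1.67 and Mt2 between 0.51 and 1.51 when an array was left out. The deposited scaling moved the median of all genes to -0.118. Relative to that median, Mt1 lay at 1.31, Mt2 at 0.91, Slc39a14 at 0.22, Mtf1 at -0.44, Slc30a1 at -0.40, Slc39a4 at -0.45 and Slc30a5 at -0.23. The median of the other 20 zinc genes was -0.089 with the deposited scaling and -0.050 with centred arrays, opposite in sign to 0.075, and 0.029 above the median of all genes in both.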

Other observations

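Of the zinc, copper and iron lists, the iron list held the 3 genes with the smallest p. Slc40a1, which encodes ferroportin, the iron exporter of the basolateral side, had log2 levels of 11.28, 11.28 and 11.23 in antibiotics, against 10.69, 10.81 and 10.69 in re-fed (difference 0.53, SE 0.097, adjusted p = 0.0868 with limma). Tfrc, the transferrin receptor through which cells take up iron, had 8.97, 9.08 and 9.06 in antibiotics, against 8.61, 8.62 and 8.60 in re-fed (difference 0.43, SE 0.095). Steap2, a ferrireductase, had 7.22, 6.99 and 7.23 in antibiotics, against 8.22, 7.76 and 7.66 in re-fed (difference -0.73, SE 0.16). In the common run these differences were 0.53 for Slc40a1, 0.42 for Tfrc and -0.61 for Steap2. These 3 genes were named for their small p, and their groups did not overlap. On the list of 16 the groups did not overlap for 2 genes that lay higher and 2 that lay lower. Of all genes, 8.88% were separate and higher and 10.7% separate and lower. Over the 16 iron genes above the floor, 8 differed in each direction, the median was -0.019 (0.019 in the common run), and 0 passed an adjusted p of 0.05. At an unadjusted p under 0.05 there were 4 (25%, against 12.6% of all genes).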
